A study of Bos taurus with 10 samples.

Results

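Liver was compared with visceral adipose tissue of cows at peak lactation on 6 of the 10 cDNA microarrays of the series. The comparison took the 2 arrays of liver and set them against the mean of the 2 arrays of mesenteric and the 2 arrays of omental adipose tissue. The remaining arrays carried subcutaneous adipose tissue and mammary gland. Each array was hybridised with RNA of 1 tissue and with a common reference standard mixed from tissues. In each tissue 1 array carried the tissue in Cy3 and 1 carried it in Cy5. Per the labels these are 2 hybridisations of 1 RNA sample, so each tissue counts as 1 sample. How many animals a sample holds, their breed and their age are unknown here. With 1 sample a tissue, differences between tissues come without p-values. Every value below is a log2 ratio of tissue over reference, centred on the median of its array, or a difference of such ratios. A ± beside a difference is its distance in either dye orientation from the mean of both orientations. It covers technical error between orientations only, and leaves out dye shifts shared by the tissues and the choice of normalisation. Each array gave 15970 to 16245 spots with a value. The ratios carry no intensity, so how far a spot stood above background could not be seen, and precision is limited by the number of arrays.

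The sign of the ratios is likely and not stated. It was taken as Cy5 over Cy3, because the design text treats the ratios as relative expression. The arrays of 1 tissue correlated at -0.78 to -0.66 across spots before signs were turned. That marks them as dye swaps, but the correlation is the same under either direction and cannot tell which holds. Genes of hepatocytes were higher in liver with Cy5 over Cy3 only, so their place is no independent result. The opposite direction would turn every sign below. Names were attached to the elements through a rebuilt print layout, so any clone may be misnamed. The layout was chosen by the agreement of elements of the same gene. Where elements of a gene lie close together below, that is no independent result.

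At peak lactation the liver of a cow takes up fatty acids released by adipose tissue, oxidises part of them, makes glucose and secretes plasma proteins. Adipose tissue in this state is known to release fat more than it stores it. Mesenteric fat lies along the intestine and omental fat in the fold that hangs from the stomach, and both hold fibroblasts, blood vessels and immune cells beside the fat cells. Liver holds mostly hepatocytes, with endothelial cells, stellate cells, bile duct cells and resident macrophages.

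A gene was counted as higher in a tissue when its difference was at least 2-fold and had the same sign in both dye orientations. Of 4330 named genes compared, 322 were higher in liver (7.44%) and 258 were higher in visceral adipose tissue (5.96%). The median difference of all genes was -0.03. The SD of the differences across genes was 0.83, and that of the contrast between dye orientations was 0.21, in which 26 genes reached a size of 1. At least 4-fold differences were found for 103 genes higher in liver and 61 higher in visceral adipose tissue, and at least 8-fold differences for 31 and 20 genes. For 547 of the 580 genes past the rule the liver arrays lay entirely on one side of the 4 visceral arrays, and for 33 the arrays overlapped. The rule uses these same arrays and the share over all genes was not counted, so this only describes the genes picked. Just inside the rule lay SLC29A3 (1.0) and, on the other side, TLN1 (-1.0), while GAREM1 (0.9956) and KLC1 (-0.9956) lay just outside. SRA1 (1.24) and CTBP1 (1.06) were left out because their sign differed between dye orientations. Of 5412 named elements 403 were higher in liver and 364 higher in visceral adipose tissue, and of 2648 unnamed elements 178 and 150.

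**Figure D1:**
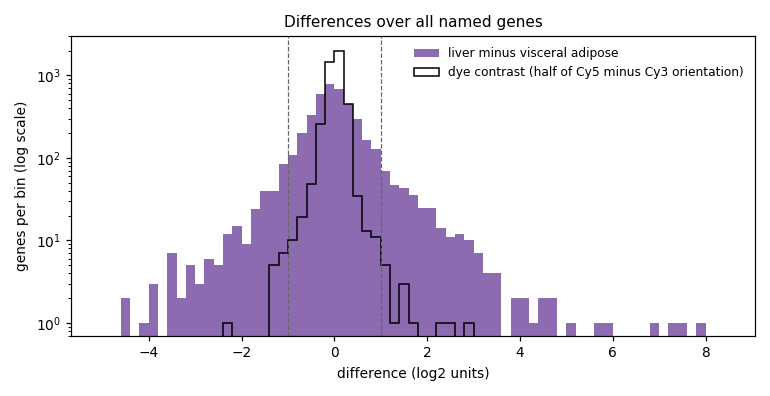
Distribution of liver minus visceral adipose differences over the 4330 named genes (filled, log2 units) and of the contrast between dye orientations (line); the vertical axis is a log scale of genes per bin and dashed lines mark 2-fold. The differences have an SD of 0.83 and reach 7.98 on the liver side and -4.60 on the visceral side, while the dye contrast has an SD of 0.21.

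The 15 largest differences on the liver side ran from 7.98 to 3.98. SERPINA3-3, a serine protease inhibitor of the antichymotrypsin family, stood at 2.94 (tissue in Cy3) and 7.78 (tissue in Cy5) in liver, against -6.39 and 0.12 in mesenteric and -5.60 and 1.37 in omental adipose tissue. The difference was 7.98 ± 0.95, or 253-fold. SLC10A1, the transporter that takes bile acids into hepatocytes, stood at 2.98 and 6.10 in liver, against -2.58 and 0.32 in mesenteric and -2.68 and -0.01 in omental adipose tissue. In both genes the liver arrays lay above all 4 visceral arrays, and in every tissue the array with the tissue in Cy5 read higher than the one with the tissue in Cy3. That shift was shared by liver and fat and left the difference of SLC10A1 at 5.78 ± 0.17. It ran through the whole group: with the tissue in Cy3 the liver values of the 15 genes lay between 1.85 (MSMO1) and 3.29 (HAVCR1), and with the tissue in Cy5 between 2.88 (MSMO1) and 8.17 (HAVCR1).

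HAVCR1, a phosphatidylserine receptor of the cell surface, differed by 7.53 ± 0.22 and UNC13D, a protein of granule secretion known from lymphocytes, by 7.39 ± 0.27. Each rested on 1 element, as did LOC616364 (6.94 ± 0.03) and LOC338050 (5.08 ± 0.13), which the gene table lists under the older name PCI. TMT1B, a thiol methyltransferase, differed by 5.85 ± 0.06. The next genes were hepatocyte enzymes and surface proteins: GAMT, which makes creatine, stood at 3.14 and 5.0 in liver, against -1.78 and 0.36 in mesenteric and -1.54 and 0.17 in omental adipose tissue (difference 4.77 ± 0.03). AHCY, which hydrolyses the product of methyl transfer reactions, differed by 4.01 ± 0.01. FMO5, a flavin monooxygenase, differed by 4.20 ± 0.11 over 2 elements at 3.79 and 4.60.

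**Figure D2:**
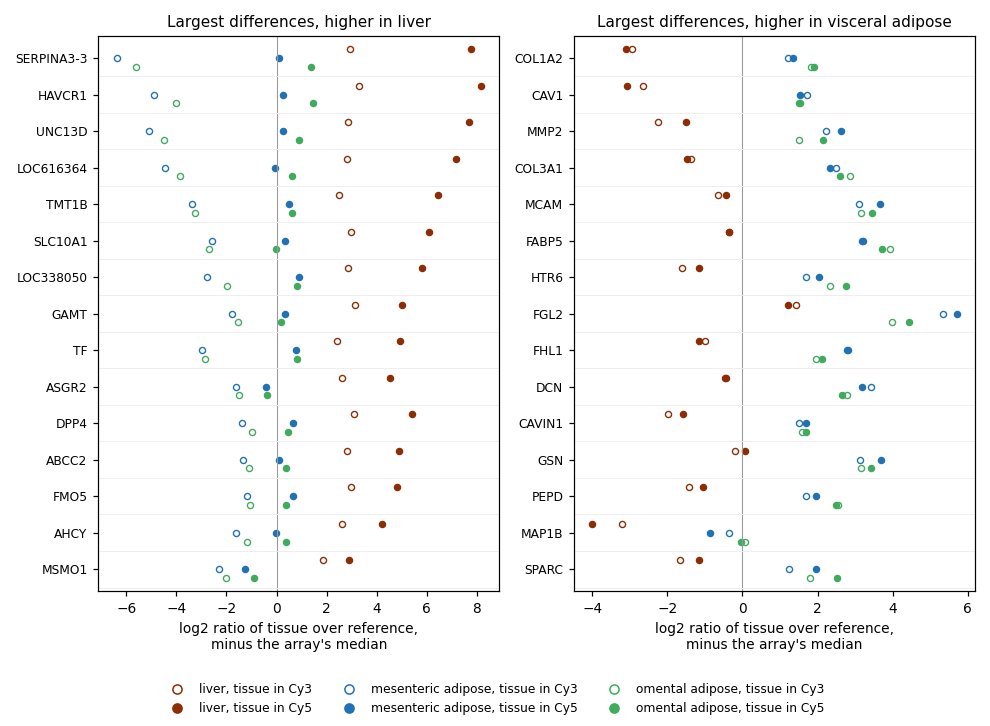
The 15 genes with the largest difference in each direction, with the log2 ratio of tissue over reference on each of the 6 arrays; open circles have the tissue in Cy3, filled circles in Cy5. Liver lies right of both depots in the left panel, where the dye orientations are up to several log2 units apart in all 3 tissues, and left of both depots in the right panel, where they lie less than 1 unit apart.

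On the visceral side the 15 largest differences ran from -4.60 to -3.29 and the dye orientations of a tissue lay less than 1 log2 unit apart. COL1A2, a chain of type I collagen, stood at -2.93 and -3.11 in liver, against 1.22 and 1.35 in mesenteric and 1.82 and 1.91 in omental adipose tissue. The difference was -4.60 ± 0.15, or 24.2-fold higher in visceral adipose tissue, with 2 elements at -4.85 and -4.34. CAV1, the main coat protein of caveolae, stood at -2.64 and -3.08 in liver, against 1.72 and 1.53 in mesenteric and 1.50 and 1.55 in omental adipose tissue (-4.43 ± 0.18). Liver lay below every visceral array for each of these genes. FABP5, a fatty acid binding protein, differed by -3.87 ± 0.04, and its 4 elements spanned -5.70 to -1.56. GSN, the actin severing protein gelsolin, differed by -3.41 ± 0.08, FHL1, a LIM domain protein of muscle, by -3.49 ± 0.12 and MAP1B, which binds microtubules, by -3.31 ± 0.24. PEPD, a peptidase that splits dipeptides ending in proline, differed by -3.40 ± 0.13. FGL2, a fibrinogen-like protein, stood at 1.43 and 1.21 in liver, against 5.35 and 5.71 in mesenteric and 3.99 and 4.44 in omental adipose tissue (-3.55 ± 0.31). HTR6, named for a serotonin receptor, differed by -3.60 ± 0.03 on 1 element.

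The genes are described next by role, first those of the hepatocyte. The lists were written with earlier results of these data known, and no list was tested; each is given by its counts and its median, beside the median of -0.03 and the shares of 7.44% and 5.96% over all genes. In tissue RNA, fewer cells of a type and less RNA per cell cannot be told apart.

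Of 6 measured plasma protein genes 5 were higher in liver and 1 did not pass (median 2.14). TF, transferrin, the iron carrier of plasma, stood at 2.43 and 4.91 in liver, against -2.98 and 0.79 in mesenteric and -2.84 and 0.82 in omental adipose tissue (4.72 ± 0.62). RBP4, the plasma carrier of retinol, stood at 2.59 and 6.50 in liver, against -1.35 and 2.71 in mesenteric and -0.77 and 3.42 in omental adipose tissue (3.54 ± 0.10). Liver was higher in each orientation, but the lower liver array lay below some visceral arrays, and RBP4 is also made by fat cells. SERPING1, the inhibitor of complement C1, differed by 2.17 ± 0.29, PROS1, the anticoagulant protein S, by 2.12 ± 0.45 and C4A, a complement component, by 1.81 ± 0.05. APOA1, the main protein of high density lipoprotein, stood at 0.48 and 1.22 in liver, against 0.16 and 0.05 in mesenteric and 0.14 and 0.53 in omental adipose tissue. That difference of 0.63 ± 0.30 did not pass, and the arrays overlapped. Of 19 defining hepatocyte markers listed, TF, RBP4, APOA1 and SLC10A1 were the 4 measured and 3 of them passed. Albumin and transthyretin were not analysed here.

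The complement list, added after values were seen, had 7 of 9 genes higher in liver (median 2.40). Of the 7, C4A and SERPING1 were also counted among the plasma proteins. C1S, a protease of the C1 complex, stood at 3.18 and 6.29 in liver, against 0.22 and 3.30 in mesenteric and 0.04 and 2.94 in omental adipose tissue (3.11 ± 0.06). Its partner C1R differed by 2.93 ± 0.39, C2, the protease of the classical convertase, by 2.53 ± 0.19 and C1RL by 2.40 ± 0.05. In C1S, C1R and C2 liver was higher within each orientation while the arrays of both orientations overlapped. CD59, which protects cells from the membrane attack complex, had non-overlapping arrays and differed by 3.26 ± 0.02. CFD, the factor D that fat cells secrete, stood at 0.11 ± 0.05 and CFP, properdin, at -0.01 ± 0.29, and neither passed. In the list of coagulation and vitamin K genes, also added later, 4 of 9 were higher in liver and 1 was higher in visceral adipose tissue (median 0.59). Of the 4, PROS1 was also counted among the plasma proteins, and LMAN1 and MCFD2 are counted again below in the secretory pathway. VKORC1, which recycles vitamin K, differed by 2.29 ± 0.02, and TFPI, the inhibitor of the tissue factor pathway, by -1.38 ± 0.27.

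Secretion machinery showed a smaller difference. Of 49 genes of the secretory pathway 9 were higher in liver, none was higher in visceral adipose tissue and 40 did not pass (median 0.33). The cargo receptor genes LMAN1 and MCFD2, which carry coagulation factors out of the endoplasmic reticulum, differed by 2.00 ± 0.10 and 1.65 ± 0.03. LMAN2 differed by 2.07 ± 0.21, and the disulfide isomerase genes P4HB and PDIA4 by 1.82 ± 0.09 and 1.80 ± 0.01. SEC11C, a subunit of the signal peptidase, differed by 1.52 ± 0.02. The 2 elements of PDIA4 stood at 1.73 and 1.88.

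Of 12 genes of hepatocyte transport and surface proteins 7 were higher in liver and 5 did not pass (median 2.25). Beside SLC10A1, ASGR2, a subunit of the asialoglycoprotein receptor, stood at 2.62 and 4.52 in liver, against -1.62 and -0.41 in mesenteric and -1.48 and -0.36 in omental adipose tissue (4.54 ± 0.37). DPP4, a peptidase of the bile canaliculus that fibroblasts also carry, differed by 4.54 ± 0.29. ABCC2, which pumps conjugates into bile, stood at 2.81 and 4.91 in liver, against -1.35 and 0.10 in mesenteric and -1.09 and 0.39 in omental adipose tissue (4.35 ± 0.32). The uptake carriers SLCO2B1 and SLC27A2 differed by 2.77 ± 0.05 and 2.46 ± 0.39, and the nucleoside carrier SLC29A1 by 2.04 ± 0.03. ABCC3, an exporter of the blood side, stood at -0.03 ± 0.15 and did not pass. GCGR, the glucagon receptor, was in no list and was chosen after its value was seen: it stood at 1.86 and 3.55 in liver, against -0.74 and 0.05 in mesenteric and -0.63 and 0.05 in omental adipose tissue (3.02 ± 0.47).

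None of 4 measured regulators passed (median 0.09), among them CEBPA, a factor of both hepatocytes and fat cells, at -0.45 ± 0.21. Of 8 genes of the IGF axis 2 were higher in liver (median 0.03): the binding protein genes IGFBP4 at 1.94 ± 0.06 and IGFBP3 at 1.21 ± 0.20, which stood at 0.82 after quantile normalisation and then did not pass. The 3 elements of each spread widely, from 0.81 to 2.73 for IGFBP4 and from 0.68 to 1.95 for IGFBP3. IGF2 stood at -0.20 ± 0.01 and did not pass.

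Fatty acid oxidation was the metabolic list with the most genes on the liver side. Of 15 measured genes 11 were higher in liver, 1 was higher in visceral adipose tissue and 3 did not pass (median 1.51). CPT1A, the gate for long chain fatty acids at the mitochondrion, stood at 1.63 and 1.73 in liver, against -1.11 and -0.85 in mesenteric and -1.03 and -1.03 in omental adipose tissue. The difference was 2.69 ± 0.01, with 2 elements at 2.58 and 2.80 and no overlap. The other steps of the carnitine shuttle followed, with SLC25A20, the carnitine carrier, at 1.96 ± 0.07 and CPT2 at 1.51 ± 0.01.

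Within the spiral, the acyl-CoA dehydrogenase genes ACADS and ACADVL differed by 2.15 ± 0.14 and 1.76 ± 0.10, HSD17B10, which acts at the hydroxyacyl step, by 2.60 ± 0.17 and ECI1, an isomerase for unsaturated chains, by 2.71 ± 0.05. HADH, another enzyme of the hydroxyacyl step, stood at 0.79 ± 0.23 and did not pass. The electron transfer genes split: ETFDH, which hands electrons to ubiquinone, differed by 1.38 ± 0.31 (0.79 after quantile normalisation), while ETFA and ETFB, the subunits of the flavoprotein before it, stood at 0.16 ± 0.05 and 0.24 ± 0.03. ACSL1, which activates long chain fatty acids in oxidation and in fat synthesis, was the gene on the other side at -1.15 ± 0.05. It differed by -0.74 from mesenteric and by -1.57 from omental adipose tissue, so it passed against the omental depot alone.

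Peroxisomal genes, in a list added later that shares CAT, SCP2, ACAA1 and ECI2 with others, had 8 of 15 members higher in liver and none higher in visceral adipose tissue (median 1.14). SCP2, a lipid transfer protein and thiolase, differed by 2.60 ± 0.04, PHYH, which starts the breakdown of branched phytanic acid, by 2.37 ± 0.24 and LONP2, a protease of the organelle, by 2.22 ± 0.08. GNPAT, which starts ether lipid synthesis there, stood at -0.41 ± 0.03 and did not pass.

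**Figure D3:**
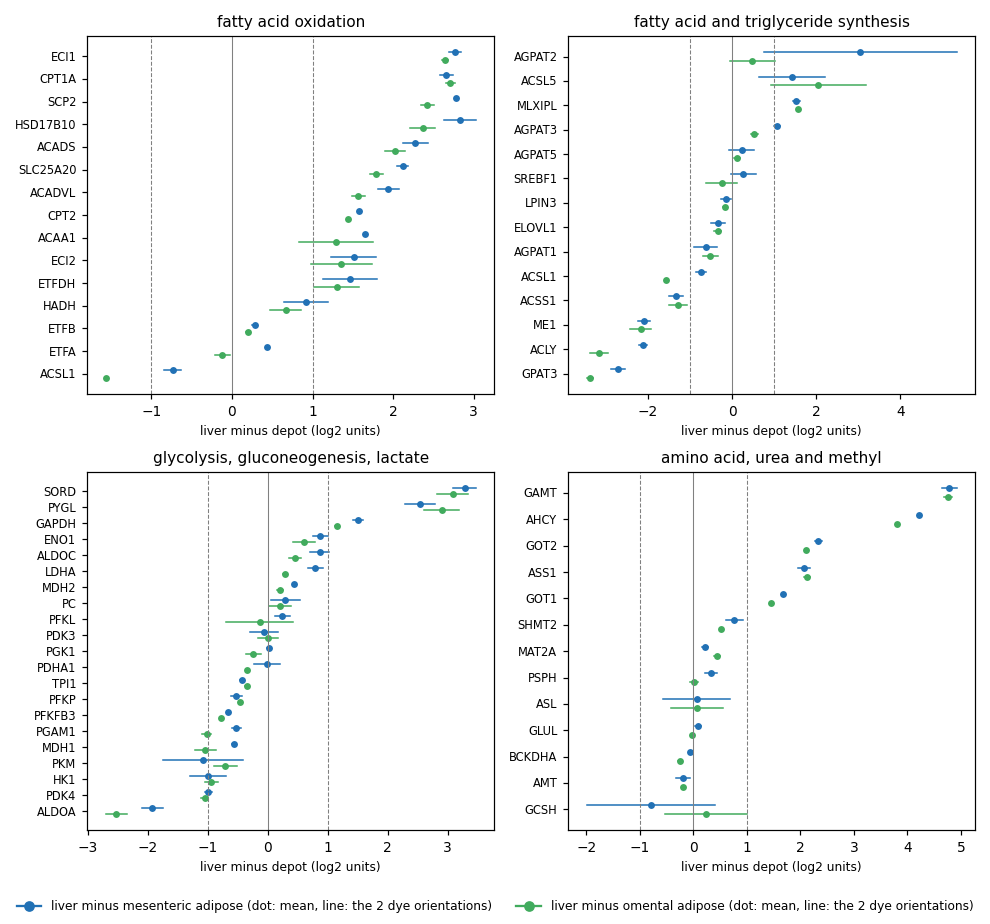
Liver minus mesenteric (blue) and liver minus omental (green) adipose tissue for the members of 4 enzyme lists, in log2 units; dots are means of both dye orientations, lines join the orientations and dashed lines mark 2-fold. Fatty acid oxidation lies mostly to the right, with 11 of 15 members past the rule, fat synthesis splits to both sides, and in that panel AGPAT2 and ACSL5 have wide lines.

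Fatty acid and triglyceride synthesis had members on both sides, with 5 of 14 higher in visceral adipose tissue and 3 higher in liver (median -0.25). GPAT3, which starts triglyceride synthesis, stood at -0.35 and 0.09 in liver, against 2.52 and 2.64 in mesenteric and 3.10 and 3.39 in omental adipose tissue (-3.05 ± 0.12). ACLY, which makes cytosolic acetyl-CoA from citrate, stood at -0.93 and -0.80 in liver, against 1.27 and 1.20 in mesenteric and 2.45 and 2.15 in omental adipose tissue (-2.64 ± 0.16). Neither gene had overlapping arrays. ME1, which supplies reducing power for synthesis, differed by -2.13 ± 0.19 and ACSS1, which activates acetate in mitochondria, by -1.30 ± 0.18. Acetate is the main carbon source of fat synthesis in ruminants. MLXIPL, the carbohydrate response factor, was higher in liver at 1.55 ± 0.03, and SREBF1, the sterol and lipogenic factor, stood at 0.01 ± 0.33.

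The other liver-side members of that list had wide errors. ACSL5 differed by 1.73 ± 0.96, with 0.78 from the Cy3 orientation alone and 2.69 from the Cy5 orientation alone. Its 2 elements stood at 0.86 and 2.61. AGPAT2, an acyltransferase of triglyceride synthesis, differed by 1.76 ± 0.88 and rested on the mesenteric array with the tissue in Cy5. It stood at 0.60 and 0.97 in liver, against -0.16 and -4.37 in mesenteric and -0.41 and 1.01 in omental adipose tissue. Without that array the difference was 0.71, and with values at the ceiling kept it was -0.19.

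Cholesterol synthesis had 4 of 6 genes higher in liver (median 1.84). MSMO1, a sterol demethylating oxidase, stood at 1.85 and 2.88 in liver, against -2.29 and -1.25 in mesenteric and -2.01 and -0.89 in omental adipose tissue (3.98 ± 0.03). EBP, a sterol isomerase, differed by 2.20 ± 0.09, ACAT2, the cytosolic thiolase that supplies acetoacetyl-CoA, by 1.96 ± 0.03 and LSS, which closes the sterol rings, by 1.72 ± 0.08. IDI1 stood at 0.24 ± 0.97 with orientations far apart, and INSIG2 at 0.89 ± 0.02, and neither passed.

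In the list of amino acid, urea and methyl metabolism 5 of 13 genes were higher in liver and 8 did not pass (median 0.33). Beside GAMT and AHCY these were GOT2 (2.22 ± 0.04) and GOT1 (1.56 ± 0.00), the aspartate aminotransferases, and ASS1, the urea cycle enzyme that joins citrulline and aspartate. The 2 elements of GOT1 stood at 0.78 and 2.34, and those of GOT2 at 1.74 and 2.70. ASS1 stood at 1.23 and 1.60 in liver, against -0.95 and -0.34 in mesenteric and -0.95 and -0.47 in omental adipose tissue (2.09 ± 0.08). ASL, the next step of the cycle, stood at 0.06 ± 0.56 and GLUL, glutamine synthetase, at 0.03 ± 0.03. In the folate list, added later, 2 of 10 genes were higher in liver (median 0.48): MTHFD1, a cytosolic enzyme of folate interconversion, at 2.71 ± 0.15 and the folate receptor gene FOLR1 at 1.91 ± 0.36.

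Of 21 genes of glucose metabolism 3 were higher in liver, 2 were higher in visceral adipose tissue and 16 did not pass (median -0.11, but 0.07 after quantile normalisation). SORD, which turns sorbitol into fructose, differed by 3.18 ± 0.22, PYGL, the liver form of glycogen phosphorylase, by 2.72 ± 0.27 and GAPDH by 1.33 ± 0.06. ALDOA, an aldolase of glycolysis, stood at -1.70 and -2.0 in liver, against 0.05 and 0.10 in mesenteric and 0.65 and 0.70 in omental adipose tissue (-2.22 ± 0.17). PDK4, a kinase that restrains the oxidation of pyruvate, lay near the threshold at -1.02 ± 0.00. PC, pyruvate carboxylase, an entry step of gluconeogenesis, stood at 0.25 ± 0.21 and did not pass. Other gluconeogenic genes such as PCK1 and G6PC1 were not analysed here.

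Routes beside glycolysis were described with lists added after values were seen. In the pentose phosphate pathway 2 of 4 genes were higher in visceral adipose tissue and 1 was higher in liver (median -0.96). The transketolase TKT differed by -2.27 ± 0.18 and the transaldolase TALDO1 by -1.51 ± 0.06, against 1.72 ± 0.07 for PGLS, the lactonase. The citric acid cycle list had 3 of 16 genes on each side (median 0.16, but -0.06 after quantile normalisation). CS, citrate synthase, stood at -2.37 and -1.75 in liver, against -0.24 and 0.19 in mesenteric and 0.37 and 0.60 in omental adipose tissue (-2.29 ± 0.15). The succinyl-CoA ligase subunits lay on opposite sides, with SUCLG2 (1.48 ± 0.01), the subunit for guanine nucleotides, higher in liver and SUCLA2 (-1.34 ± 0.10), that for adenine nucleotides, higher in visceral adipose tissue. NNT, which makes mitochondrial NADPH, differed by 2.51 ± 0.13.

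No subunit of the respiratory chain passed among 45 (median -0.09), with members from 0.98 for UQCRQ to -0.76 for UQCRH. None of 29 proteasome genes passed (median 0.30, range 0.87 to -0.92). Of 43 ribosomal protein genes 6 were higher in visceral adipose tissue, none was higher in liver and 37 did not pass (median -0.59). After quantile normalisation 3 of the 6 did not pass, RPL23A at -0.93, RPL39 at -0.78 and RPLP2 at -0.91. RPL35 differed by -1.50 ± 0.15, with 2 elements at -2.41 and -0.58, and RPS3A by -1.31 ± 0.32. Ribosomal protein genes have many near-identical copies, and cDNA elements may bind RNA of more than 1 of them.

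In the list of detoxification, bile and retinoids 9 of 20 genes were higher in liver and 1 was higher in visceral adipose tissue (median 0.98). CAT, catalase, stood at 2.05 and 5.63 in liver, against -1.12 and 1.89 in mesenteric and -1.04 and 2.09 in omental adipose tissue (3.39 ± 0.25). AOX1, aldehyde oxidase, differed by 3.21 ± 0.16, the cytosolic superoxide dismutase SOD1 by 2.82 ± 0.11 and ALDH2, which clears acetaldehyde, by 2.49 ± 0.24. CAT and AOX1 had arrays that overlapped across orientations and not within them. PRDX1, a peroxiredoxin, was on the other side at -1.33 ± 0.16.

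A wider list of redox defence, added later and sharing CAT, SOD1 and PRDX1, had 10 of 28 genes higher in liver and 5 higher in visceral adipose tissue (median 0.44). Members of the same family lay on opposite sides. Among the peroxiredoxins PRDX3 of mitochondria differed by 2.17 ± 0.15 and PRDX5 by 1.18 ± 0.20, and PRDX2 of the cytosol by -1.56 ± 0.14. Glutathione peroxidases lay at -2.76 ± 0.04 for GPX8, an enzyme of the endoplasmic reticulum, at -1.16 ± 0.07 for GPX4, which reduces lipid peroxides (-0.94 after quantile normalisation), and at 0.25 ± 0.18 for GPX1, which did not pass. Against mesenteric adipose tissue GPX4 stood at -0.90 and did not pass. SELENOP, the plasma carrier of selenium, differed by 2.50 ± 0.01, and TXNIP, a thioredoxin binding protein, by -2.11 ± 0.01.

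Of 9 iron and heme genes 4 were higher in liver (median 0.90). ALAS1, the first enzyme of heme synthesis in liver, stood at 2.79 and 3.63 in liver, against -1.33 and -0.47 in mesenteric and -0.81 and -0.39 in omental adipose tissue (3.96 ± 0.10). ALAD, the next enzyme, differed by 2.49 ± 0.01 and BLVRB, which reduces biliverdin, by 1.39 ± 0.24. Ferritin heavy chain FTH1 stood at -0.11 ± 0.03.

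**Figure D4:**
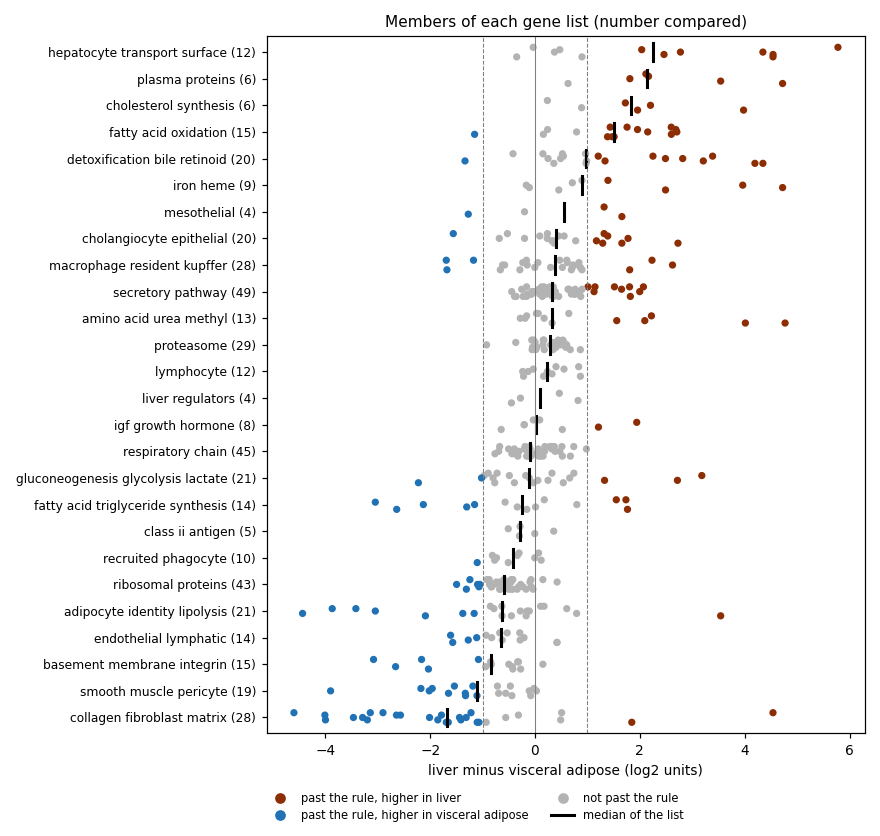
Liver minus visceral adipose difference of each member (dots, log2 units) of 26 gene lists with at least 4 compared genes, ordered by the median (black bars), with the number compared in brackets; dashed lines mark 2-fold. Hepatocyte transport, plasma protein, cholesterol and fatty acid oxidation genes lie on the liver side, with medians of 2.25 to 1.51, and collagen, smooth muscle and basement membrane genes on the visceral side, with medians of -1.67 to -0.83.

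On the visceral side, 7 of 21 genes of fat cell identity and lipolysis were higher in visceral adipose tissue, RBP4 was higher in liver and 13 did not pass (median -0.63). The median ratio of the list was -0.35 and -0.22 on the liver arrays, against 0.05 and 0.80 in mesenteric and 0.39 and 0.90 in omental adipose tissue. None of the 6 defining markers of fat cells listed, such as the genes of adiponectin, leptin and perilipin 1, was analysed here, so the adipose label was not checked. LIPE, hormone-sensitive lipase, stood at 0.41 and -0.15 in liver, against 1.92 and 2.59 in mesenteric and 1.96 and 2.40 in omental adipose tissue (-2.09 ± 0.56). These values come from 1 element. Another LIPE element, which had no value on the mesenteric array with the tissue in Cy5 and was left out, differed by -0.19 between liver and omental adipose tissue, so the elements of this gene disagree. PNPLA2, the lipase of the step before it, stood at -0.78 ± 0.12, its activator ABHD5 at -0.63 ± 0.27 and MGLL, the lipase of the last step, at -0.11 ± 0.04, and none passed. CIDEA, a lipid droplet protein, differed by -1.16 ± 0.11 and KLF4, an early factor of fat cell formation, by -1.38 ± 0.00. CIDEA passed against the omental depot alone, with -0.85 against mesenteric and -1.47 against omental adipose tissue.

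Caveolae, the membrane pits that cover fat cells and endothelial cells, were described with a list added later, of which 3 of 4 genes were higher in visceral adipose tissue (median -2.85). Of the 3, CAV1 and CAVIN1 were also counted in the fat cell list. Beside CAV1, the coat genes CAVIN1 and CAVIN3 differed by -3.42 ± 0.12 and -2.28 ± 0.51, and both elements of CAVIN1 lay at -3.69 and -3.14. PACSIN2, which bends membranes at the neck, stood at -0.26 ± 0.15.

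Interstitial matrix and fibroblast genes formed the list with the most members on the visceral side: 21 of 28 were higher in visceral adipose tissue, 2 were higher in liver and 5 did not pass (median -1.67). The median ratio of the list was -1.08 and -1.27 on the liver arrays, against 0.47 and 0.60 in mesenteric and 0.41 and 0.59 in omental adipose tissue. COL3A1, type III collagen, stood at -1.37 and -1.48 in liver, against 2.48 and 2.33 in mesenteric and 2.87 and 2.59 in omental adipose tissue (-4.00 ± 0.05). DCN, decorin, which binds collagen fibrils, differed by -3.46 ± 0.10 and SPARC, a collagen binding matrix protein, by -3.29 ± 0.10. MMP2, a gelatinase, stood at -2.24 and -1.51 in liver, against 2.23 and 2.61 in mesenteric and 1.52 and 2.15 in omental adipose tissue (-4.01 ± 0.11). MGP, matrix Gla protein, an inhibitor of calcification, differed by -3.20 ± 0.19. None of these 5 genes had overlapping arrays.

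The members of that list on the liver side were DPP4 and FBLN2. FBLN2, fibulin 2, stood at 1.10 and 1.58 in liver, against -0.72 and -0.46 in mesenteric and -0.61 and -0.24 in omental adipose tissue (1.85 ± 0.08). Its relatives FBLN1 (-2.57 ± 0.03) and FBLN5 (-2.01 ± 0.18), glycoproteins of basement membranes and elastic fibres, lay on the other side. FN1, fibronectin, which hepatocytes secrete into plasma, stood at 0.35 and 0.80 in liver, against 0.54 and 0.82 in mesenteric and -0.63 and -0.38 in omental adipose tissue. It did not pass (0.49 ± 0.09), and it differed by -0.10 from mesenteric and by 1.08 from omental adipose tissue.

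Of 15 basement membrane and integrin genes 5 were higher in visceral adipose tissue and none was higher in liver (median -0.83). COL4A1, a chain of type IV collagen, stood at -0.20 and -0.27 in liver, against 2.49 and 2.79 in mesenteric and 2.96 and 3.14 in omental adipose tissue (-3.08 ± 0.15). Its partner chain COL4A2 stood at -0.94 ± 0.16, just short of the rule. The laminin chains LAMC1, LAMB1 and LAMA4 differed by -2.66 ± 0.08, -2.16 ± 0.02 and -2.03 ± 0.08, and LAMA5 stood at -0.50 ± 0.02. ITGB1, the integrin subunit that binds laminin and collagen, differed by -1.08 ± 0.34, and by -0.95 after quantile normalisation, where it did not pass.

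**Figure D5:**
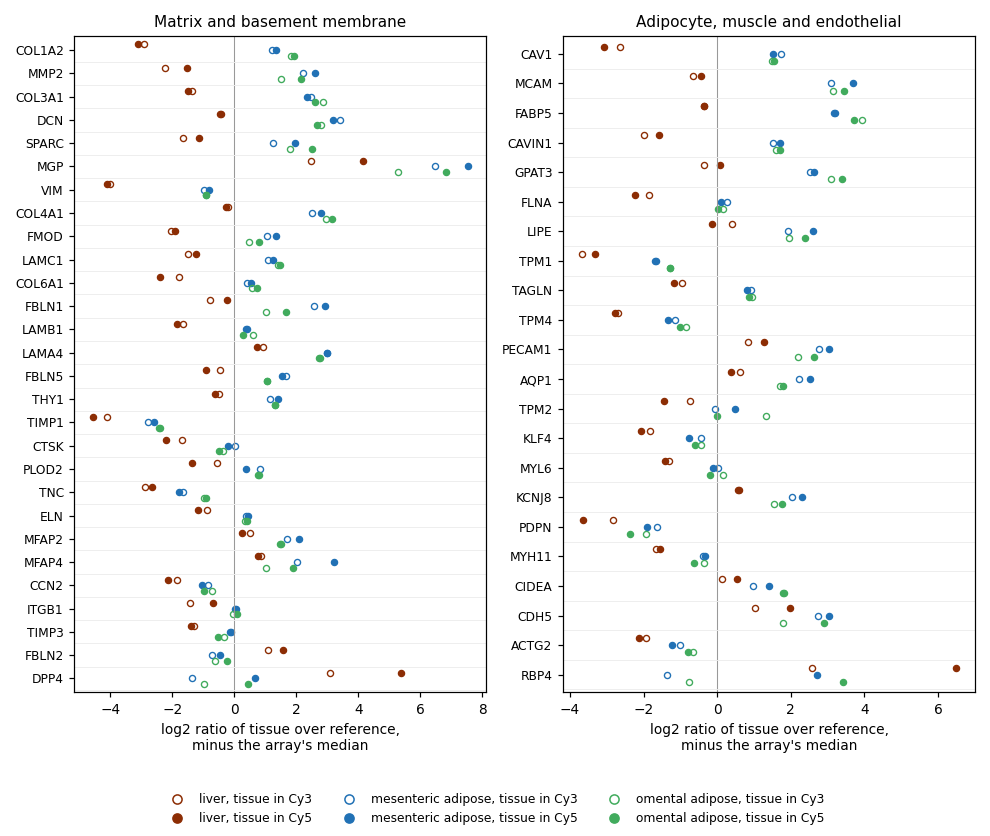
Log2 ratio of tissue over reference on each of the 6 arrays for members past the rule of the matrix and basement membrane lists (left) and of the fat cell, smooth muscle and endothelial lists (right); open circles have the tissue in Cy3, filled circles in Cy5. Liver lies left of both depots except for FBLN2 and DPP4 in the left panel and RBP4 in the right panel, and for CDH5 it overlaps with omental adipose tissue.

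Smooth muscle and pericyte genes had 10 of 19 members higher in visceral adipose tissue and none higher in liver (median -1.11). MCAM, an adhesion molecule of vessel walls, stood at -0.66 and -0.45 in liver, against 3.10 and 3.68 in mesenteric and 3.15 and 3.45 in omental adipose tissue (-3.90 ± 0.12). FLNA, an actin cross-linker, differed by -2.18 ± 0.13, the tropomyosin genes TPM1, TPM4 and TPM2 by -2.02 ± 0.18, -1.65 ± 0.05 and -1.54 ± 0.16, and TAGLN, a contractile protein, by -1.96 ± 0.05. Many of these proteins also occur in fibroblasts. The 2 elements of TPM2 stood at -0.50 and -2.57. MYH11, the myosin of smooth muscle, differed by -1.18 ± 0.12 (-0.94 after quantile normalisation).

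Endothelial and lymphatic genes had 4 of 14 members higher in visceral adipose tissue (median -0.65). PECAM1, the adhesion molecule CD31 of endothelium, stood at 0.84 and 1.27 in liver, against 2.77 and 3.05 in mesenteric and 2.21 and 2.63 in omental adipose tissue (-1.61 ± 0.04). AQP1, a water channel of capillaries, differed by -1.57 ± 0.20, PDPN, podoplanin of lymphatic and mesothelial cells, by -1.27 ± 0.23 and CDH5, the cadherin of endothelial junctions, by -1.11 ± 0.13. After quantile normalisation PDPN stood at -0.99 and did not pass. CDH5 differed by -1.38 from mesenteric and by -0.84 from omental adipose tissue, so it passed against the mesenteric depot alone. LYVE1, known from liver sinusoids and lymphatics, stood at -0.29 ± 0.01 and did not pass. The fat cell, matrix, basement membrane, smooth muscle and endothelial lists thus all had medians below that of all genes. The part of each cell type in the caveolar, matrix and fat cell differences was not tested.

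Genes of cell surface and cytoskeleton partners were added later as a list of annexins and S100 proteins, calcium-dependent binding proteins, of which 6 of 12 were higher in visceral adipose tissue and 2 were higher in liver (median -1.0). ANXA5 differed by -2.57 ± 0.19, S100A10 by -2.28 ± 0.45 and S100A11 by -2.21 ± 0.29. ANXA4 (1.88 ± 0.11) and ANXA6 (1.71 ± 0.18) lay on the liver side. In the list of TGF-beta signalling, also added later, 3 of 10 genes were higher in visceral adipose tissue and none was higher in liver (median -0.73). The ligand genes TGFB3 and TGFB2 differed by -2.19 ± 0.12 and -1.64 ± 0.02, and TGFBR3, a coreceptor, by -1.11 ± 0.08, while the receptor genes TGFBR1 (-0.70 ± 0.25) and TGFBR2 (-0.80 ± 0.09) did not pass. TGFBR3 passed against the mesenteric depot alone, with -1.57 against mesenteric and -0.65 against omental adipose tissue.

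Epithelial and bile duct genes had 7 of 20 members higher in liver and 1 higher in visceral adipose tissue (median 0.41). SPINT1, an inhibitor of surface serine proteases, differed by 2.73 ± 0.21. The keratins KRT18 and KRT8, which hepatocytes and mesothelial cells also make, differed by 1.66 ± 0.14 and 1.32 ± 0.08, and the 3 elements of KRT18 ranged from 0.27 to 2.45. The junction genes OCLN (1.39 ± 0.29) and CDH1 (1.29 ± 0.09) passed as well, CDH1 with 0.96 after quantile normalisation. The member higher in visceral adipose tissue was SPP1 at -1.56 ± 0.37, with 2 elements at -0.72 and -2.40. EPCAM, known from bile ducts, stood at -0.68 ± 0.33 and did not pass. KRT19, a keratin of bile ducts and mesothelium, stood at -0.20 ± 0.17, with -1.06 against mesenteric and 0.66 against omental adipose tissue. CLDN1, a claudin of tight junctions, stood at 2.61 and 3.72 in liver, against 1.69 and 2.86 in mesenteric and 0.09 and 0.93 in omental adipose tissue (1.77 ± 0.05). Mesenteric arrays overlapped with those of liver for this gene. CLDN1 passed against the omental depot alone, with 0.89 against mesenteric and 2.66 against omental adipose tissue. In the mesothelial list of 4 genes, which shares its 3 keratins with the epithelial list, the median was 0.56 against both depots, -0.02 against mesenteric and 1.11 against omental adipose tissue.

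Markers of resident macrophages lay on both sides, with 3 of 28 higher in liver and 3 higher in visceral adipose tissue (median 0.39, but -0.04 after quantile normalisation). LGMN, a lysosomal protease, stood at 2.36 and 3.82 in liver, against -0.17 and 1.12 in mesenteric and -0.25 and 1.16 in omental adipose tissue (2.62 ± 0.06). CD5L, secreted by liver macrophages, differed by 2.23 ± 0.02 (1.21 after quantile normalisation) and CD14, a receptor for endotoxin, by 1.81 ± 0.12. CD5L stood at 2.49 and 6.42 in liver, against 0.03 and 4.27 in mesenteric and 0.43 and 4.16 in omental adipose tissue. Its liver value was higher within each orientation, while the arrays overlapped across orientations. CTSK, which cleaves collagen, differed by -1.69 ± 0.18, LGALS3, galectin 3, by -1.68 ± 0.49 and VSIG4, a complement receptor, by -1.17 ± 0.27. VSIG4 passed against the omental depot alone, with -0.95 against mesenteric and -1.395 against omental adipose tissue. The C1q genes C1QB (0.87 ± 0.18), C1QC (0.62 ± 0.09) and C1QA (0.47 ± 0.14) did not pass.

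Of 10 genes of recruited phagocytes 1 passed (median -0.42), the chemokine gene CCL2 at -1.10 ± 0.02, with -0.61 against mesenteric and -1.59 against omental adipose tissue and -0.96 after quantile normalisation. None of 12 lymphocyte genes (median 0.23), of 5 genes of class II antigen presentation (median -0.28), of 2 stellate cell genes (median -0.33) and of 2 erythroid genes (median -0.11) passed.

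The genes past the rule were also counted against each depot apart. Both comparisons use the same liver arrays, and the genes were picked by the mean of both depots. The counts are therefore a description and do not show that the depots agree. Of 322 genes higher in liver 283 passed against each depot, 25 against mesenteric alone and 14 against omental adipose tissue alone. Of 258 genes higher in visceral adipose tissue 191 passed against each depot, 36 against mesenteric and 31 against omental adipose tissue alone. No gene passed in opposite directions. The SD of the difference between the depots across genes was 0.31, against 0.83 for liver minus visceral adipose tissue.

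Among genes past the rule against 1 depot, those with the widest gap between depots were examined array by array. CASD1, a sialic acid acetyltransferase, stood at 0.93 and 1.48 in liver, against -0.51 and -3.80 in mesenteric and 0.19 and 0.56 in omental adipose tissue. Without the mesenteric array with the tissue in Cy5 its difference was 1.28, against 2.10 with it. Without the same array FEM1B was at 0.54 (1.47 with it), NR4A1, a nuclear receptor, at 0.39 (1.03), PHOSPHO1 at 1.19 (1.73) and CXCL14, a chemokine, at -2.52 (-1.61). CXCL14 stood at -0.56 and -4.35 in liver, against -0.33 and -3.98 in mesenteric and 0.20 and 0.72 in omental adipose tissue, so the arrays of 1 tissue lay farther apart than the tissues did.

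The list medians were also set beside those of liver minus subcutaneous adipose tissue, which use the same liver arrays. The lists of resident macrophages and recruited phagocytes had the widest gaps: the median of resident macrophage genes was 0.39 against visceral and -1.42 against subcutaneous adipose tissue, and that of recruited phagocyte genes was -0.42 and -3.08. Caveolar genes had a median of -2.85 against visceral and -1.32 against subcutaneous adipose tissue, smooth muscle genes -1.11 and -0.32, and endothelial genes -0.65 and 0.14. Plasma protein genes had 2.14 and 2.99, and fatty acid oxidation genes 1.51 and 2.08. GPAT3 differed by -3.05 from visceral and by 0.39 from subcutaneous adipose tissue, and LIPE by -2.09 and -0.18. Each depot is 1 sample, and these differences were not tested.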

How the data were processed

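The deposited value table was used, whose values are log2 ratios of the dyes. The base is not named and was inferred from a ceiling of 16.61, which is a round number once a log2 is undone. Values at it were taken as missing. Per the series' design text, 20 ug of RNA was labelled and hybridised for 2 days at 42 C, a ScanArray 4000 scanned the slides and GenePix 4.0 processed the images. Whether background was subtracted or dyes were balanced was not given in the sources used here. Array medians ran from -1.32 to 0.71 as deposited.

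Signs were turned on arrays whose tissue was in Cy3, and each array was centred on its median. One omental array, titled Cy5, has a reference that 1 label puts in Cy5 and another in Cy3. It was used as titled, and 1 alternative omits it. Neighbouring spots, which correlated at 0.83 to 0.92, were averaged. Names came from matching 48 table blocks of 171 elements to 16 annotation blocks of 528 among layouts tried, by the agreement of elements of a gene. Symbols were brought up to date by Entrez identifier from RefSeq's gene table for ARS-UCD2.0, where 5467 of 5472 named elements, for 4366 genes, matched. Of the identifiers 10884 had 1 symbol, 186 several and 5346 none. Elements of a gene were averaged.

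The layout, the lists and the genes were chosen with earlier results of these data known. Named genes are the 15 largest in each direction, up to 6 per list and direction, members opposite to their list, defining markers and up to 6 genes past against 1 depot. Other genes named, among them those of the 10 lists added later, were chosen after their values were seen. The size rule was also run on simulated data. These had no dye shift specific to a gene, so the run cannot tell how the rule deals with such shifts. Alternatives covered centring, arrays, depots, the ceiling, elements and thresholds. Python 3.11.15, numpy 2.4.6, pandas 2.3.3, matplotlib 3.10.9, R 4.3.3 and limma 3.58.1 were used.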

Additional observations from a re-analysis of the deposited data

How the results depend on the processing

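No paired analysis was possible because each tissue is 1 RNA sample and the replicate number marks the dye orientation of its 2 arrays. The numbers of genes ran from 264 to 369 higher in liver and from 200 to 293 higher in visceral adipose tissue, over all alternatives but the 4-fold threshold, which left 103 and 61, and the limma fit. The orientations alone gave 336 to 369 genes higher in liver and 279 to 293 higher in visceral adipose tissue. Without centring the median of all genes was -0.08 and the split 306 to 283, and after quantile normalisation 279 to 233, of which 269 and 207 were among the genes counted before. Quantile normalisation also moved 84 of the 121 genes named by fixed rules by more than their ±, and 37 stayed within it. Limma with the depots as samples of visceral adipose tissue called 478 and 352 genes at an adjusted p under 0.05, but its 1 residual degree of freedom came from the depots and the lone liver sample was assumed to vary like them. With mesenteric adipose tissue as visceral the median of the mesothelial list turned to -0.023 and NR4A1 to -0.52, and AGPAT2 turned to -0.19 with ceiling values kept. The amino acid list had a median of 0.71 without the Cy5 arrays (0.33 with both) and the fat cell list -0.35 (-0.63). Medians ran from 1.16 to 1.81 for fatty acid oxidation, 1.73 to 2.51 for plasma proteins and -1.91 to -1.49 for the matrix list. The resident macrophage median ran from -0.38 with subcutaneous adipose tissue added to the adipose mean to 0.57, and was -0.041 after quantile normalisation. With subcutaneous adipose tissue added, the medians were -1.29 for recruited phagocytes, -0.77 for class II antigen presentation and -0.58 for fat synthesis, which was -0.068 after quantile normalisation. The medians of glucose metabolism (-0.28 to 0.075), the citric acid cycle (-0.061 to 0.29), regulators, the IGF axis, lymphocytes, the erythroid pair and the respiratory chain lay on either side of 0. The causes of these changes were not tested. Dim spots could not be filtered.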

Other observations

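Some genes of the liver side were in no list and were chosen after their values were seen. PIK3C2G, a lipid kinase, differed by 3.57 ± 0.03, SULT1E1, which sulfates estrogens, by 3.47 ± 0.20 and SDC2, a heparan sulfate proteoglycan of the cell surface, by 3.23 ± 0.04. RARRES2, the adipokine chemerin, was higher in liver at 2.68 ± 0.44, and ERRFI1, an inhibitor of the EGF receptor, at 2.84 ± 0.01. On the visceral side, MFGE8, a glycoprotein that bridges dying cells and phagocytes, differed by -3.12 ± 0.01, CST3, the protease inhibitor cystatin C, by -2.72 ± 0.16, PTGDS, a prostaglandin synthase and lipid carrier, by -2.66 ± 0.33 and AKAP12, a scaffold of protein kinase A, by -2.87 ± 0.01.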
